A study of Mus musculus with 6 samples.

Results

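The genes described here encode the drug and xenobiotic metabolizing enzymes of mouse lung alveolar epithelial type 2 (AT2) cell preparations, in 6 classes. Membership was set by gene symbol and uses no measured value of the gene: cytochrome P450 families 1 to 4 (Cyp), cytosolic and related glutathione S-transferases (Gst), UDP-glucuronosyltransferases (Ugt), flavin-containing monooxygenases (Fmo), aldehyde dehydrogenases (Aldh) and carboxylesterases of families 1 and 2 (Ces). The rule found 77 of the 13931 listed genes, made up of 25 Cyp, 20 Gst, 17 Aldh, 7 Ces, 5 Fmo and 3 Ugt genes. The study compared AT2 cells from C57BL/6 mice given repeated PBS (3 libraries) with AT2 cells from C57BL/6 mice given repeated bleomycin at 1 U/kg (3 libraries), bleomycin being a chemotherapy agent that injures the lung and is widely used to model fibrosis. The series design gives 3 mice per group, and each library was taken as 1 mouse. Stranded libraries were made from total RNA. The sort or other isolation of the cells, the age and sex of the mice, the route, number and spacing of the doses and the time of harvest were not given in the sources used here. No transgene or mutation is named in the labels of either group. Expression was given as FPKM (fragments per kilobase of transcript, scaled to the number of mapped fragments), summed here over the transcripts of each gene, and the number of reads per library is unknown.

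Xenobiotic metabolism is usually divided into phase I, in which cytochrome P450s and flavin monooxygenases oxidize a compound, aldehyde dehydrogenases oxidize reactive aldehydes and carboxylesterases cleave esters and amides, and phase II, in which glutathione or glucuronic acid is attached so that the product can be exported. In the mouse lung much of the P450 activity is known from club cells of the airway, and AT2 cells and other lung cells also carry parts of this machinery. Cytochrome P450 reductase passes electrons to the microsomal P450s, and the aryl hydrocarbon receptor, NRF2 and the pregnane X receptor are transcription factors that induce sets of these genes.

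Because several of these genes have near-identical neighbours, the sequences that bear on how far their FPKM can be separated are shown first. All 77 leading transcripts (the transcript with the highest FPKM of each gene) were found in the GENCODE M21 transcripts, and 28 of them shared no 50-base window with any other gene. In 21 members more than 10% of the windows were shared, and in 6 more than 50%. Cyp2a5, a coumarin 7-hydroxylase, and Cyp2a4, a steroid hydroxylase, were 98.5% identical over 1485 coding bases, and 40.8% of the windows of Cyp2a5 occurred in another gene. Aldh1a1, which oxidizes retinal, and Aldh1a7, a close paralog, were 91.6% identical over 1506 coding bases, and 7.49% of the windows of Aldh1a7 were shared. The 75-base stretches of coding exon 4 with the most differences are printed for both pairs, 5′ to 3′ on the coding strand, with the differing bases in capitals. They come from GENCODE M21 on GRCm38.p6, at chr7:26837148-26837222 (plus strand) for Cyp2a5, chr7:26308985-26309059 (plus strand) for Cyp2a4, chr19:20619973-20620047 (plus strand) for Aldh1a1 and chr19:20719237-20719311 (minus strand) for Aldh1a7.
Cyp2a5: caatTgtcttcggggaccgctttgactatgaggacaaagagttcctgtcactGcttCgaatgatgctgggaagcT
Cyp2a4: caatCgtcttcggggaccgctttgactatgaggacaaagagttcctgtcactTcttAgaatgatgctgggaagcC
Aldh1a1: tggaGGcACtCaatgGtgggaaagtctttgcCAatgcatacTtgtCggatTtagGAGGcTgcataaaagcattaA
Aldh1a7: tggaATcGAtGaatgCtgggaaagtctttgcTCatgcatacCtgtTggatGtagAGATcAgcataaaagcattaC
The first pair differs at 4 of the 75 bases and the second at 17. No other 75-base coding stretch within 1 exon of Cyp2a5 differs from Cyp2a4 at more bases, and the untranslated parts were not compared in this way. Of the 50-base windows of Cyp2a5, 31% occurred in Cyp2a4, and fragments that lie within such stretches cannot be told apart. Gstp1 and Gstp2 (98.1% identical in coding sequence), Gsta1 and Gsta2 (97.5%) and Ugt1a6a and Ugt1a6b (98.4%) were as close as the first pair. Of the 20 members called different between the groups, 8 shared no window with another gene and 4 shared more than 10%, namely Cyp2a5, Cyp4f16 (25.8%), Gstm5 (14.4%) and Cyp4b1 (10.3%). The values of these 4 members are uncertain for this reason, by an amount that was not tested. The shared percentage counts matches to any annotated gene and is not itself the error of an FPKM.

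Upstream sequence was read for the 61 of 77 members that have an entry in the RefSeq promoter table (GRCm38.p6). The 250 bases before the RefSeq start are printed for 4 members, 2 of them higher and 2 lower after bleomycin. The difference between the groups in these 4 held in every alternative processing tried. The RefSeq start lay 34 bases from the listed start of the leading transcript for Cyp2a5, 12 for Aldh1l1 and 0 for Cyp4f18 and Gstk1. In some other members it lay far from the listed start, at most 15739 bases (Cyp4f39). The stretches lie at chr8:72009627-72009876 (minus strand) for Cyp4f18, chr7:26835089-26835338 (plus strand) for Cyp2a5, chr6:42245685-42245934 (plus strand) for Gstk1 and chr6:90550543-90550792 (plus strand) for Aldh1l1. They are written 5′ to 3′ on the strand of the gene, with matches to any of the 4 motifs searched in capitals.
Cyp4f18: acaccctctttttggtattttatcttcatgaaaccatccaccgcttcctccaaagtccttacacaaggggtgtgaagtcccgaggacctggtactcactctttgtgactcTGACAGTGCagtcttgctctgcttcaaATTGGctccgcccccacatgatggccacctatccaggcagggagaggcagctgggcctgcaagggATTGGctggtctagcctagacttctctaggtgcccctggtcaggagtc
Cyp2a5: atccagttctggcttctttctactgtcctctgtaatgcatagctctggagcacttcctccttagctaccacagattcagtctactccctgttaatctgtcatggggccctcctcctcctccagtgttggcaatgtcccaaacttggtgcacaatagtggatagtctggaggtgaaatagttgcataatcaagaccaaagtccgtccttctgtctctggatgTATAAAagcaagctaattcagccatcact
Gstk1: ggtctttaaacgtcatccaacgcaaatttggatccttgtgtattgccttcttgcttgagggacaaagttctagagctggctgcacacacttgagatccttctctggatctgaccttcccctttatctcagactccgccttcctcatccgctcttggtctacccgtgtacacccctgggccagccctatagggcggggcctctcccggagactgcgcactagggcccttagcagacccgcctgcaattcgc
Aldh1l1: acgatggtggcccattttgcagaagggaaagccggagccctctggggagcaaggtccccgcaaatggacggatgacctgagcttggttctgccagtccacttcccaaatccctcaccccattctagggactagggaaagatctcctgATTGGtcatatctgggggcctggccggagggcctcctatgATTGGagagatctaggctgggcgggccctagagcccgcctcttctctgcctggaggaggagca
The motifs, searched on both strands, were GCGTG (the core bound by the aryl hydrocarbon receptor with its partner), TGACNNNGC (the antioxidant response element core bound by NRF2), CCAAT and TATAAA, and none of them contains another. The upstream stretch of Cyp4f18 held TGACNNNGC starting 140 bases before the start and CCAAT on the other strand at 113 and 48 bases. Cyp2a5 held TATAAA at 29 bases, a place that lies within its listed transcript. Aldh1l1 held CCAAT on the other strand at 103 and 63 bases, and none of the 4 motifs was found in Gstk1. Over the 61 members, GCGTG occurred in 17 (27.9%, against 28.2% of all 32851 RefSeq windows and 44.7% of the 10597 listed genes with an entry). TGACNNNGC occurred in 5 members (8.2%, against 10.2% of all windows and 12.2% of listed genes). CCAAT was found in 36 members (59%, against 33.8% and 35.5%) and TATAAA in 9 (14.8%, against 12.4% and 6.78%). The upstream stretches of the members had a median of 4 CpG and 52.8% GC, against 15 CpG and 59.6% GC for the listed genes with an entry. A match of letters is a description of the sequence and says nothing of binding.

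The 6 libraries differed in markers of other cells as well as in the enzymes. The summed FPKM of 10 AT2 markers ran from 17816 to 25859 in PBS and from 3283 to 7546 in bleomycin libraries, and all 10 were lower, yet Sftpc, the defining gene, stayed at 2356 FPKM or more in every library. That of 9 leukocyte markers ran from 22 to 36.4 in PBS and from 800 to 1299 in bleomycin, and that of 8 endothelial markers from 35.6 to 41.1 and from 265 to 462, with all members of both lists higher. Summed fibroblast and smooth muscle markers went from 1462–1736 to 248–767, with 4 of 7 lower and the other 3 not called. Summed ciliated cell markers were 50.2–92.3 in PBS and 89.2–171 in bleomycin (2 of 7 higher), those of club cells 2210–10054 and 2004–3556 (1 of 6 higher), and those of mesothelium 17.4–88 and 35.4–42.3 (0 of 4 called). The club cell marker Scgb1a1 stood apart in PBS library 1, at 9716 FPKM against 2419 and 2011 in the other PBS libraries and 2554, 1747 and 3202 in the bleomycin libraries. All values below are from preparations with these makeups. In such bulk libraries fewer cells of a type and less RNA per cell cannot be told apart, and the part of the cell makeup in the enzyme values was not tested.

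Of the 77 members, 62 reached 1 FPKM in at least 3 of the 6 libraries and were tested. With limma on log2(FPKM + 1) and Benjamini-Hochberg adjustment over all 12326 tested genes, 13 members (21%) were lower after bleomycin, 7 (11.3%) were higher and 42 did not pass an adjusted p of 0.05. The count of lower members was 7, 8 and 6 without PBS libraries 1, 2 and 3 in turn and 7 without bleomycin library 1, and the count of higher members was 4 without PBS library 2, PBS library 3 or bleomycin library 1. In the same fits, the lower count over all tested genes fell from 905 to 473, 514, 457 and 513. The higher count over all tested genes fell from 1871 to 1381, 1325 and 1330. Over all tested genes, 7.34% were lower and 15.2% were higher, so the lower share is above the background and the higher share is below it. The median log2 fold change of the tested members was -0.40, against 0.09 over all tested genes, and 44 of 62 were below zero. No overlap between the groups was seen in 21 members that were lower (33.9%, against 16.4% of all tested genes) and in 9 that were higher (14.5%, against 27.2%). The log2 fold changes ran from -1.29 (Gstm5) to 3.71 (Cyp4f18), and none of the tested members fell below the median of the AT2 markers, -1.90. Calls in the higher direction were 35% of the calls among members (67.4% among all tested genes), and this share depends on the scaling: with library medians set equal it was 21.7% (50.2%) and with quantile normalization 20.8% (49.8%), as both move the median of all tested genes from 0.09 to -0.08. The tested members Cyp4f18 and Aldh1b1 were below 1 FPKM in every PBS library and passed the filter only through the bleomycin libraries. The within-group spread was like that of other genes, with a median SD of 0.308 on the log2 scale against 0.290.

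**Figure D1:**
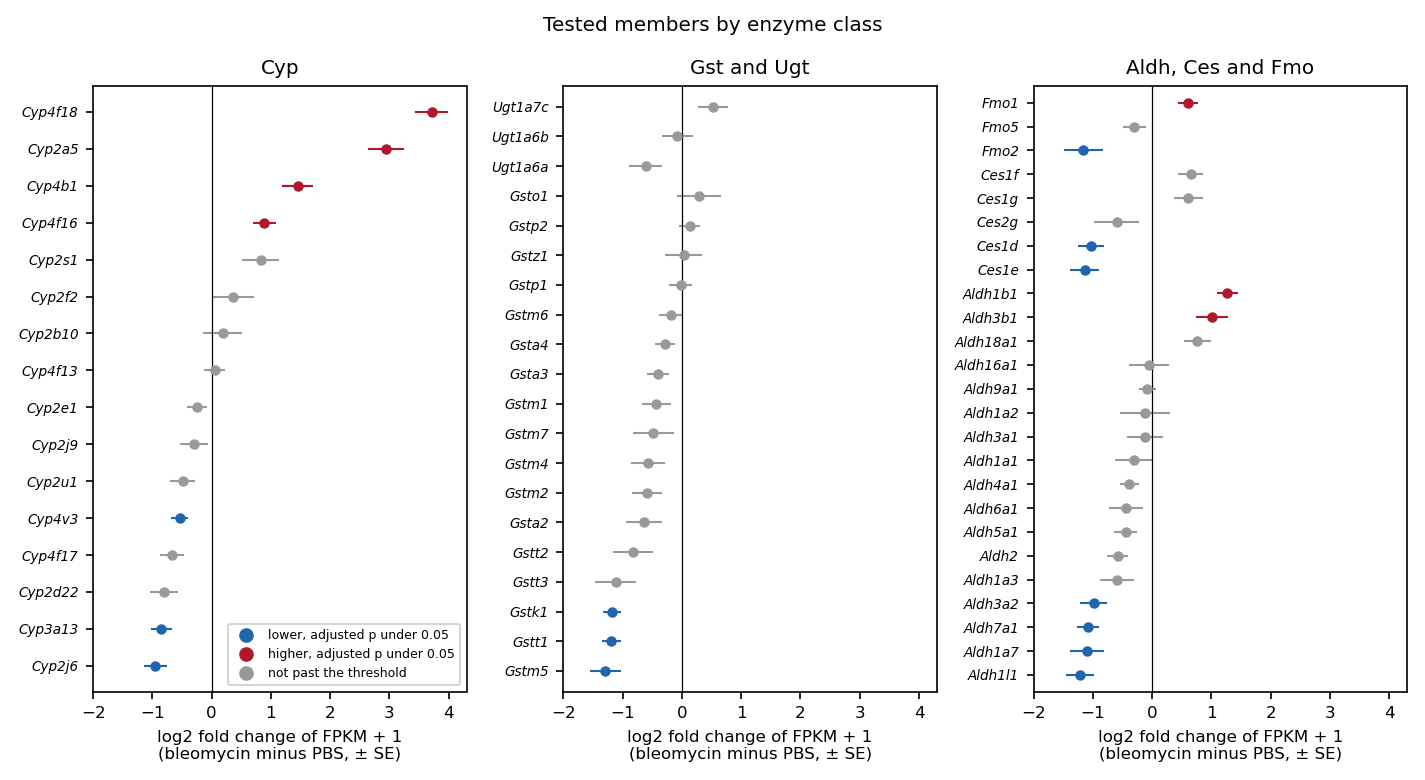
The log2 fold change (bleomycin minus PBS, log2(FPKM + 1) scale) of all tested members but 1 is plotted by enzyme class, with colours for those called higher, called lower and not called. The Gst members lie between -1.29 and 0.29 with no call higher, while the Cyp members reach 3.71.

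Levels covered a wide range. A mean of 100 FPKM or more over the 6 libraries was seen in 6 members and a mean of 10 or more in 36, whereas 14 were under 1. The 15 untested members (9 Cyp, 3 Gst, 2 Ces and 1 Fmo) had single-library values from 0 to 1.86 FPKM. Summed over all 77 genes, the members gave 3089 ± 122 FPKM in PBS and 2429 ± 160 in bleomycin libraries (mean ± SD, n = 3 each), a change of -21.4%, and the groups did not overlap. This was 1.02%, 1.23% and 1.18% of all listed FPKM in the PBS libraries and 0.899%, 0.98% and 0.87% in the bleomycin libraries.

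**Figure D2:**
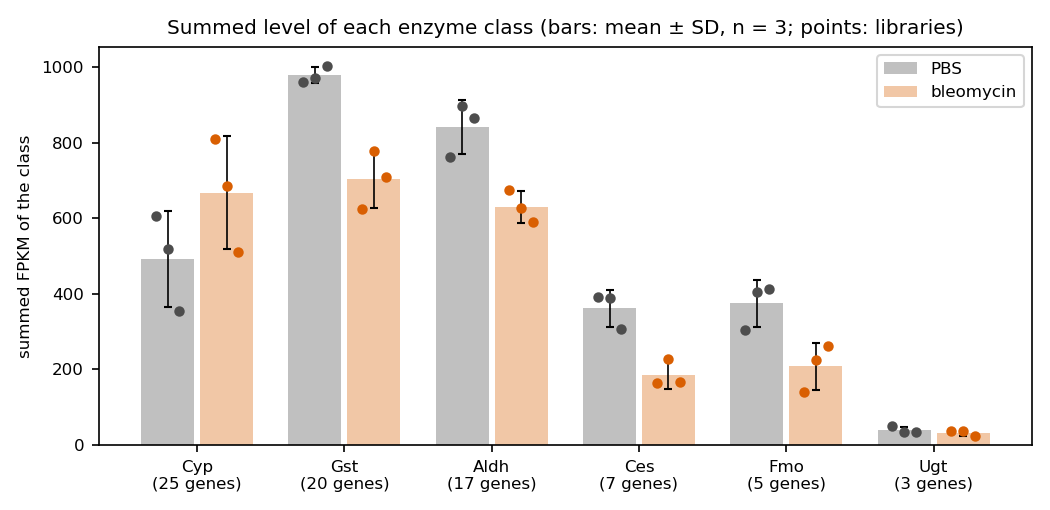
Summed FPKM of each enzyme class is shown for each library, PBS and bleomycin side by side, with bars for the group mean, error bars for the SD (n = 3) and points for the libraries. The Gst, Aldh, Ces and Fmo sums of the bleomycin libraries lie below all PBS libraries, while the Cyp and Ugt sums overlap.

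The P450s were the class with the most calls in the higher direction. Of 16 tested Cyp genes, 4 were higher, 3 lower and 9 not called, with a median log2 fold change of -0.10. The background for this and each class count below is 15.2% higher and 7.34% lower over all tested genes. Whether any class differs from that background was not tested. Cyp4f18, known in mouse neutrophils as a hydroxylase of leukotriene B4, was at 0.65, 0.431 and 0.987 FPKM in the PBS libraries and at 30.8, 17.6 and 16.7 in the bleomycin libraries. The groups were far apart and every PBS library was below 1 FPKM. Its mean rose 31.5-fold, from 0.689 ± 0.28 to 21.7 ± 7.92 FPKM (SD, n = 3), with a log2 fold change of 3.71 ± 0.28 (SE; adjusted p = 0.000319, limma). The neutrophil receptor gene Csf3r, named after its values were seen, was at 0.805, 0.396 and 1.07 FPKM in PBS libraries. In bleomycin libraries Csf3r was at 53.2, 24.6 and 33.1 FPKM. All 9 leukocyte markers given above, Csf3r among them, were higher. The part of the cell makeup in the Cyp4f18 values was not tested. Cyp2a5 was at 4.97, 2.62 and 3.79 FPKM in PBS and 46.2, 38.8 and 24.1 in bleomycin libraries. The lowest bleomycin value was several times the highest PBS value, and the mean rose 9.58-fold (log2 fold change 2.94 ± 0.30, adjusted p = 0.000985, limma). Its neighbour Cyp2a4, 98.5% identical to it in coding bases, was below 1 FPKM in every library, with 0.212, 0.0163 and 0.023 in PBS and 0.921, 0.62 and 0.547 in bleomycin.

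Cyp4b1, a P450 known for high expression in the lung, was at 27.5, 21.8 and 16 FPKM in PBS and 60.7, 75.3 and 46.8 in bleomycin libraries, without overlap. Its mean rose 2.8-fold, with a log2 fold change of 1.45 ± 0.26 (adjusted p = 0.0101, limma). Cyp4f16, of the same subfamily as Cyp4f18, was at 3.22, 3.38 and 2.94 FPKM against 8.32, 5.43 and 6.69 and rose by 0.89 ± 0.19 on the log2 scale (adjusted p = 0.0201, limma). That call was lost, with adjusted p-values from 0.0507 to 0.0661, when any of the 3 PBS libraries or bleomycin library 1 was left out. Of the 4 tested genes of the Cyp4f subfamily 2 were higher, while Cyp4f13 (0.05) and Cyp4f17 (-0.67, adjusted p = 0.0603) were not called.

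Among the P450s that fell, Cyp2j6, of a family of arachidonic acid epoxygenases, was at 6.8, 6.75 and 7.93 FPKM in PBS and 3, 4.14 and 2.62 in bleomycin libraries (log2 fold change -0.95 ± 0.19, adjusted p = 0.0162). Cyp3a13, a member of the family known for broad drug oxidation, was low throughout, at 2.89, 2.57 and 2.8 against 1.24, 1.29 and 0.747 FPKM (-0.85 ± 0.18, adjusted p = 0.0177). Cyp4v3, the ortholog of the human fatty acid hydroxylase CYP4V2, was at 22.6, 24.7 and 21.5 against 15.7, 14 and 16.6 FPKM (-0.54 ± 0.14, adjusted p = 0.04). None of these 3 genes overlapped between the groups. The calls were nevertheless not all stable: without PBS library 3 the adjusted p was 0.058 for Cyp2j6 and 0.0589 for Cyp3a13. It was 0.0551 for Cyp2j6 without bleomycin library 1 and 0.0555 for Cyp3a13 without PBS library 1. For Cyp4v3 it lay between 0.0504 and 0.129 whichever library was left out.

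The most abundant P450 did not pass the test. Cyp2f2, which activates naphthalene and is known from club cells, was at 439, 368 and 199 FPKM in PBS and 529, 422 and 307 in bleomycin libraries. The groups overlapped (log2 fold change 0.36 ± 0.36, adjusted p = 0.509). It made up 66.5% of the summed Cyp FPKM in PBS and 62.4% in bleomycin libraries. The Cyp sum (605, 519 and 355 against 809, 685 and 510 FPKM) overlapped between the groups, whereas the sum without Cyp2f2 (166, 151 and 156 against 281, 263 and 203 FPKM) did not. That second sum holds the called genes Cyp4b1, Cyp2a5 and Cyp4f18, so it is not a result separate from their calls. Of the tested Cyp genes, 8 had fold changes above zero and 8 below. Among the PBS libraries, library 1 had the highest Scgb1a1 and the highest Cyp2f2. Among the bleomycin libraries, library 3 had the highest Scgb1a1 (3202 FPKM) and the lowest Cyp2f2 (307 FPKM). Whether these genes move together was not tested. Cyp2s1 (19.4, 14 and 28.7 against 47.1, 36.6 and 27.1 FPKM; adjusted p = 0.104) and Cyp2b10, a target of the constitutive androstane receptor (20.3, 30.1 and 19 against 34.3, 31.5 and 16 FPKM; adjusted p = 0.72), overlapped too. Cyp1a1, the classic target of the aryl hydrocarbon receptor, was under the filter, at 0.316, 0.313 and 0.729 FPKM in PBS and 0.977, 1.83 and 1.86 in bleomycin libraries. Cyp2c44, also under the filter, was at 1.01, 0.619 and 0.934 against 0.166, 0.244 and 0.152 FPKM.

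**Figure D3:**
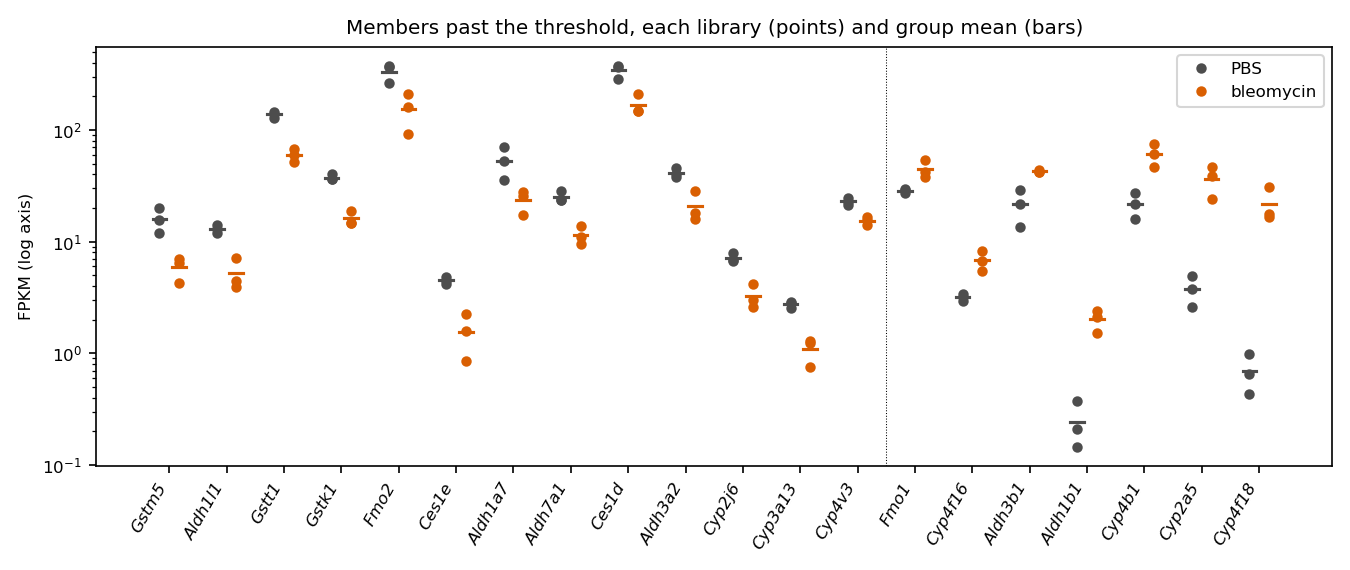
FPKM of the 20 called members in each of the 6 libraries (points) with the group means (short bars), on a log axis, with PBS and bleomycin libraries in different colours. The groups separate in every one of the 20 genes, most widely in Cyp4f18 (0.431–0.987 against 16.7–30.8 FPKM). The genes were called on this same difference, so the separation adds no support. Among all tested genes, 43.6% do not overlap between the groups.

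The glutathione S-transferases moved in the lower direction or were not called. Of 17 tested Gst genes, 3 were lower, none was higher and 14 were not called, with a median log2 fold change of -0.48 and 14 of 17 below zero. Gstt1, of the theta subfamily, was at 146, 127 and 140 FPKM in PBS and 51.4, 67.9 and 60.3 in bleomycin libraries. The groups were tight and apart, and the mean fell from 138 ± 9.92 to 59.9 ± 8.22 FPKM (SD, n = 3; log2 fold change -1.19 ± 0.16, adjusted p = 0.0035, limma). Gstk1, the kappa enzyme of mitochondria and peroxisomes, was at 40.3, 36.1 and 36.2 against 14.8, 19 and 14.7 FPKM. It fell by a similar amount (-1.18 ± 0.16, adjusted p = 0.00328, limma) and shared no 50-base window with another gene. Gstm5, a mu enzyme, was at 20.1, 11.9 and 15.5 against 4.22, 6.44 and 7.02 FPKM (-1.29 ± 0.26, adjusted p = 0.0152). Without PBS library 3 its adjusted p was 0.0512.

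Other abundant Gst genes did not pass. Gstm1, the highest of the class, was at 237, 285 and 306 FPKM in PBS and 151, 237 and 236 in bleomycin libraries, which meet at 237 FPKM (log2 fold change -0.43, adjusted p = 0.242). Gstm2 was at 143, 77 and 133 against 66.2, 79.6 and 80.1 FPKM (-0.59, adjusted p = 0.155), and without PBS library 2, the low one, its adjusted p was 0.033. Gstt3, a theta neighbour of Gstt1, was at 16.5, 36.6 and 29.9 against 16.1, 8.41 and 11.3 FPKM. Its groups just failed to overlap (-1.12 ± 0.35, adjusted p = 0.0634), and without PBS library 1 its adjusted p was 0.0317. Gsta3 was at 94.4, 103 and 129 against 70.2, 89.1 and 87.4 FPKM, without overlap (-0.40, adjusted p = 0.179). All 6 tested mu genes and all 3 tested theta genes had fold changes below zero, from -1.29 to -0.19 and from -1.19 to -0.83, but only 1 in each subfamily was called. The pi genes Gstp1 (105, 92.6 and 88.1 against 103, 106 and 75.2 FPKM; -0.02, adjusted p = 0.947) and Gstp2 (0.13) were near zero, with the caveat that their sequences can hardly be separated. The summed Gst FPKM was 979 ± 21.9 in PBS and 704 ± 77.3 in bleomycin libraries, a change of -28.1%.

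Every one of the 17 Aldh genes was tested, and 4 were lower, 2 higher and 11 not called, with a median of -0.39. Those that fell serve different aldehydes. Aldh1l1, the 10-formyltetrahydrofolate dehydrogenase of folate metabolism, was at 14.2, 12 and 13 FPKM in PBS and 4.47, 7.18 and 3.96 in bleomycin libraries (log2 fold change -1.22 ± 0.23, adjusted p = 0.0117, limma). Aldh7a1, of lysine degradation, was at 28.2, 23.5 and 23.4 against 9.44, 13.9 and 11 FPKM (-1.08 ± 0.19, adjusted p = 0.00866). Both were called in every alternative tried. Aldh3a2, which oxidizes fatty aldehydes, was at 45.4, 37.7 and 40.6 against 18, 28.6 and 16.1 FPKM (-0.99 ± 0.23, adjusted p = 0.0278). Aldh1a7 was at 52.8, 70.2 and 35.9 against 25.5, 28 and 17.5 FPKM (-1.10 ± 0.29, adjusted p = 0.039). In none of the 4 did the groups overlap. The Aldh3a2 call was lost without any single library other than bleomycin library 2 (adjusted p 0.0613 to 0.0855), and the Aldh1a7 call without any single library other than PBS library 3 (0.0656 to 0.101).

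In the other direction, Aldh1b1, a mitochondrial enzyme that also takes acetaldehyde, was at 0.212, 0.146 and 0.373 FPKM in PBS and 2.13, 1.52 and 2.39 in bleomycin libraries. It was near the floor in PBS and low in bleomycin libraries, and rose by 1.27 ± 0.18 on the log2(FPKM + 1) scale (adjusted p = 0.00426, limma), a scale that understates the change of so low a gene. Aldh3b1, an enzyme for lipid-derived aldehydes, was at 29.2, 13.5 and 21.9 against 42.2, 41.7 and 43.7 FPKM. The bleomycin libraries were close together at 42.5 ± 1.02 and all above PBS at 21.5 ± 7.86 (SD, n = 3; 1.01 ± 0.27, adjusted p = 0.0407). That call was lost (adjusted p 0.0572 to 0.102) when any library other than PBS library 1 was left out. Aldh18a1, a proline synthesis enzyme, did not overlap either (5.62, 5.12 and 3.02 against 8.43, 8.4 and 7.9 FPKM) but had an adjusted p of 0.0558.

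The abundant Aldh genes were not called. Aldh1a1 was at 235, 435 and 413 FPKM in PBS and 364, 267 and 229 in bleomycin libraries, overlapping widely, with PBS library 1 as low as the bleomycin libraries (-0.31 ± 0.31, adjusted p = 0.514). Its paralog Aldh1a7, which lies in the same stretch of chromosome 19, fell, but whether the changes of the pair differ was not tested. Aldh2, the mitochondrial acetaldehyde dehydrogenase, was at 254, 217 and 221 against 132, 156 and 178 FPKM. The groups did not overlap, with a log2 fold change of -0.58 ± 0.18 and an adjusted p of 0.0634, and it was 0.048 without bleomycin library 3. The summed Aldh FPKM was 841 ± 71.6 in PBS and 630 ± 43.1 in bleomycin libraries (-25.1%), with Aldh1a1 at 42.4% and 45.1% of it.

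The carboxylesterase sum was almost entirely 1 gene, Ces1d, a triglyceride and ester hydrolase, which held 94.4% of it in PBS and 90.8% in bleomycin libraries. Ces1d was at 373, 368 and 286 FPKM in PBS and 149, 209 and 148 in bleomycin libraries. The groups were well apart, and its mean fell from 343 ± 48.6 to 169 ± 34.8 FPKM (SD, n = 3; log2 fold change -1.03 ± 0.22, adjusted p = 0.018, limma). Ces1e, a low member of the same gene run on chromosome 8, was at 4.43, 4.87 and 4.17 against 2.25, 1.57 and 0.847 FPKM (-1.14 ± 0.24, adjusted p = 0.018). Leaving out single libraries moved the adjusted p of Ces1d to 0.0579 (without PBS library 1), 0.0615 (without PBS library 2) and 0.0598 (without bleomycin library 1). For Ces1e it lay between 0.0517 and 0.0589 without any of the PBS libraries or bleomycin library 2. The other 3 tested Ces genes were not called: Ces2g (10.1, 13.1 and 13.1 against 3.62, 10.4 and 10.9 FPKM; adjusted p = 0.304), Ces1f (0.65, adjusted p = 0.0703) and Ces1g (0.61, adjusted p = 0.121). The Ces sum went from 362 ± 48.5 to 186 ± 37.1 FPKM (-48.8%), which was the largest proportional change of the 6 class sums.

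The flavin monooxygenases held calls in both directions within 1 gene run on chromosome 1. Fmo2, the main flavin monooxygenase of the lung, was at 261, 365 and 374 FPKM in PBS and 92.6, 161 and 210 in bleomycin libraries. All bleomycin libraries were below PBS, and the mean fell from 333 ± 62.6 to 155 ± 59 FPKM (SD, n = 3; log2 fold change -1.16 ± 0.33, adjusted p = 0.0488, limma). Fmo1 was at 29.4, 27.1 and 29.2 against 37.9, 54.2 and 42 FPKM and rose 1.56-fold (0.61 ± 0.17, adjusted p = 0.0479, limma). These are the calls nearest the threshold: the Fmo2 call was kept without bleomycin library 3 and lost without any other library (adjusted p 0.0708 to 0.132). The Fmo1 call was lost whichever library was left out (0.0516 to 0.13). Over all 17 alternatives, Fmo2 was called in 6 and Fmo1 in 4. Fmo5 (7.58, 6.95 and 5.24 against 4.48, 6.04 and 4.86 FPKM; -0.30, adjusted p = 0.316) was not called, and Fmo4 was under the filter. Fmo2 made up 88.7% of the Fmo sum in PBS and 72.8% in bleomycin libraries, and the sum went from 375 ± 61.1 to 209 ± 62.1 FPKM (-44.4%).

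None of the 3 Ugt genes was called at an adjusted p of 0.05 by limma (0 also at an unadjusted p under 0.05). These 3 genes of the Ugt1a locus use their own first exon and share the last exons, so part of any fragment count cannot be assigned to 1 of them. Ugt1a6a was at 36.9, 25.7 and 23.6 FPKM in PBS and 21, 22.4 and 12.4 in bleomycin libraries (-0.61, adjusted p = 0.163). Ugt1a7c was at 9.36, 4.81 and 7.05 against 12.3, 8.99 and 9.64 FPKM (0.52, adjusted p = 0.193), and Ugt1a6b at 3.69, 3.66 and 3.28 against 3.87, 4.52 and 1.96 (-0.08, adjusted p = 0.863). Every 50-base window of the leading Ugt1a6a transcript, 80.7% of those of Ugt1a6b and 40.9% of those of Ugt1a7c occurred in another gene. The division of the summed 39.3 ± 9.17 and 32.4 ± 7.25 FPKM between them is therefore uncertain.

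The split of a gene's FPKM between its transcripts differed between the groups in some members, in no larger a share than among all such genes. Among the 21 members with 2 or more transcripts and at least 5 FPKM in both group means, the share of the leading transcript did not overlap between the groups in 3 (14.3%, against 17.6% of the 3717 such genes in all). For Fmo1, the transcript Fmo1-001 held 56%, 69.3% and 67.4% of the gene's FPKM in PBS and 88.5%, 87.3% and 89.2% in bleomycin libraries, and its own FPKM went from 16.5, 18.8 and 19.7 to 33.5, 47.3 and 37.5. For Ugt1a7c, the transcript Ugt1a7c-001 held 46%, 35.9% and 50% in PBS and 81.1%, 74.6% and 81.2% in bleomycin libraries, at 4.31, 1.73 and 3.52 against 9.98, 6.71 and 7.83 FPKM. Taken by its highest transcript in place of the sum, Ugt1a7c had a log2 fold change of 1.17 and an adjusted p of 0.0419 (limma). Another of its listed transcripts, Ugt1a7c-201, starts at the same base as Ugt1a6b-002 (chr1:88103252), so its shares also depend on how fragments were divided between these genes. In Cyp2f2 the share of the leading transcript was 99.2% in each PBS library and 99.4% to 99.5% in bleomycin libraries, a separation of no practical size. The share of members is close to the background share. Transcript values of short-read data are estimates, and the error of the split is not in the deposited values.

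**Figure D4:**
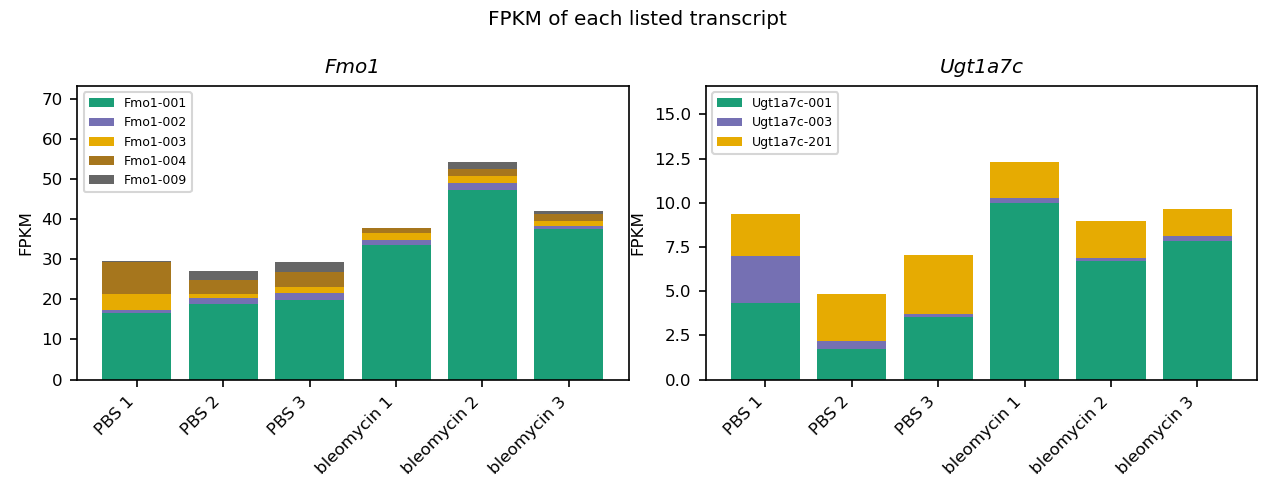
FPKM of each listed transcript of Fmo1 and Ugt1a7c, stacked by colour, with 1 bar per library. The transcripts Fmo1-001 and Ugt1a7c-001 are higher in all 3 bleomycin libraries than in any PBS library.

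Many members lie side by side in the genome, and whether neighbours change together was not tested. On mm10, 15 runs of members less than 1 Mb apart held 50 of the 77 genes and 27 lay alone. The Gst mu run on chromosome 3 (107895821 to 108044894) held 7 genes, 6 of them tested and all 6 with fold changes below zero. The Cyp2 run on chromosome 7 (25802475 to 27133660) held 5 genes, 4 of them tested, and its fold changes ran from 0.19 (Cyp2b10) to 2.94 (Cyp2a5), all above zero with 1 called. The Fmo run on chromosome 1 held Fmo1, which rose, and Fmo2, which fell. In the Ces1 run on chromosome 8 (93056728 to 93337308) the fold changes ran from -1.14 to 0.65, with 2 genes lower and none higher.

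The genes that work with these enzymes were taken as a list of 69 regulators, electron donors, other conjugating enzymes and transporters, of which 64 were in the files and 60 were tested. Of these 60, 10 were lower (16.7%, against the 7.34% of all tested genes), 6 were higher (10%, against 15.2%) and 44 were not called, with a median log2 fold change of -0.32. The count of lower partners was 6, 5 and 6 without PBS libraries 1, 2 and 3 in turn, and 6 and 4 without bleomycin libraries 1 and 2. With equal medians it was 20. The lower count over all tested genes, 905 in the main fit, was 473, 514, 457, 513 and 508 without the same libraries. With equal medians that count was 1435. Among the regulators, Ahr, the aryl hydrocarbon receptor, was at 4.1, 4.85 and 4.79 FPKM in PBS and 12.7, 15.8 and 11 in bleomycin libraries and rose by 1.33 on the log2 scale (adjusted p = 0.00348, limma). Nfe2l2, which encodes NRF2, was at 84.9, 104 and 75.9 against 62.7, 16.6 and 55.2 FPKM and was not called (-1.16, adjusted p = 0.14), with bleomycin library 2 far below the others. Its known target Nqo1, a quinone reductase, was at 1.22, 0.897 and 1.7 against 2.98, 4.53 and 1.73 FPKM (0.80, adjusted p = 0.1). Nr1i2, the pregnane X receptor, was under the filter, at 0.302, 0.126 and 0.262 against 1.02, 0.897 and 0.664 FPKM, and Nr1i3 was not among the genes in the files. Por, the reductase that serves the microsomal P450s, was at 150, 117 and 78.6 against 55.8, 64.1 and 66.6 FPKM. Its groups did not overlap but its adjusted p was 0.0591 (-0.84), and 0.0229 without PBS library 3.

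Partners of conjugation and export moved both ways. Glutathione reductase, Gsr (1.34, adjusted p = 0.00615), the gamma-glutamyltransferase Ggt1 (1.65, adjusted p = 0.00422) and the efflux transporters Abcb1a (1.75, adjusted p = 0.00327) and Abcb1b (0.86, adjusted p = 0.0137) rose, as did the sulfotransferase Sult1d1 (1.31, adjusted p = 0.0192). The esterase Pon1 (-1.95, adjusted p = 0.00373), the aldehyde oxidase Aox3 (-1.75, adjusted p = 0.00167), the sulfate donor synthase Papss2 (-1.22, adjusted p = 0.0287), the sulfotransferase Sult1a1 (-0.93, adjusted p = 0.012), the gamma-glutamyltransferase Ggt5 (-0.97, adjusted p = 0.0156) and the efflux transporter Abcc3 (-0.83, adjusted p = 0.0172) fell. The same kinds of enzyme thus stand on both sides. Ggt1 was at 0.583, 0.00853 and 0.653 FPKM in PBS and 3.07, 3.84 and 3.12 in bleomycin libraries. It passed the filter only through the bleomycin libraries, and its log2 fold change ran from 0.62 to 3.16 over the alternatives. Also lower were Hsd11b1 (-1.17), Mgst1 (-0.78), Dhrs3 (-0.71) and Aox1 (-0.64), with adjusted p-values of 0.0339, 0.0318, 0.032 and 0.0357. These 4 were named after their values were seen, and each lost its call in at least 4 of the 6 fits that left out a library. Papss2 lost its call without any library other than bleomycin library 3 (0.0575 to 0.0859), Abcc3 without PBS library 2, PBS library 3 or bleomycin library 1 (0.0529 to 0.0568), and Sult1d1 without PBS library 1 (0.0617) or 2 (0.0532). Abcb1b (0.0514) and Ggt5 (0.0559) lost theirs without bleomycin library 2.

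**Figure D5:**
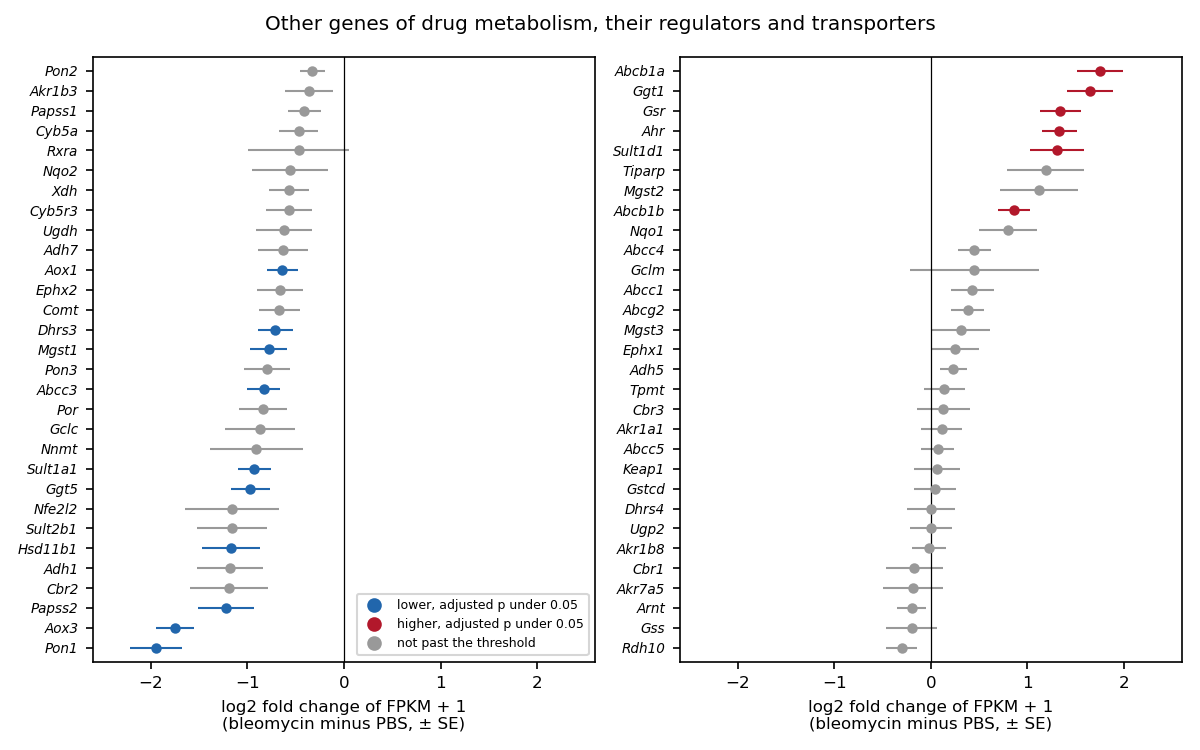
Log2 fold changes of the 60 tested partner genes (bleomycin minus PBS, log2(FPKM + 1) scale), with standard errors as bars and colours for called higher, called lower and not called. Abcb1a is the highest at 1.75 and Pon1 the lowest at -1.95.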

How the data were processed

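Expression was read from 6 deposited tables of transcript FPKM, 1 per library, in FPKM as deposited by the authors. The submitters' processing notes name HISAT2, StringTie, FastQC 0.10.1 and the build mm10. The role, order and settings of these tools, the annotation release and strand use in counting were not given in the sources used here. FPKM values of transcripts were summed per gene identifier and 1 was added before taking log2. Genes at 1 FPKM or more in at least 3 of 6 libraries were compared between the groups, with no covariate, by a moderated linear model with a mean-variance trend (limma 3.58.1, R 4.3.3). Its p-values were adjusted by Benjamini-Hochberg over all 12326 tested genes and called under 0.05. A fold change on this scale understates the change of low genes. Since FPKM keeps no depth, no counting error is given. The p-values set the difference between the groups against the spread among libraries within the groups, moderated over all tested genes. The test was run on simulated data first. Libraries of the 2 groups share replicate numbers in their titles, but no pairing is stated and the numbers were not used to pair them.

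The members, the partner list and the marker lists were chosen with earlier results of these data known. The text names every called member, the 3 most abundant members of each class, members without overlap and a log2 fold change of at least 1, and the 6 partners with the smallest adjusted p in each direction. The partners Ahr, Nfe2l2, Por, Nqo1, Nr1i2 and Nr1i3 were named in any case. Other genes (among them Cyp1a1, Cyp2a4, Cyp2c44, Cyp4f13, Cyp4f17, Aldh18a1, Ces1f, Ces1g, Gstp2 and Csf3r) were named after their values were seen. Members not named are given by counts and ranges, and 1 tested member is not reported here and is left out of the plot by class, though counts and sums include it. Alternatives were pseudocounts of 0.1 and 5, no filter, a filter at a mean of 5 FPKM, equal medians, quantile normalization, rescaling to equal sums, the highest transcript of each gene, no variance trend, library weights, a replicate block and leaving out each library.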

Additional observations from a re-analysis of the deposited data

How the results depend on the processing

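With 3 libraries per group and unknown read numbers, differences among low members may be missed. Of the 20 called members, 7 (Cyp4f18, Cyp2a5, Cyp4b1, Gstk1, Gstt1, Aldh1l1 and Aldh7a1) were called under all 17 alternatives, Aldh1b1 under the 16 that tested it (not the filter at a mean of 5 FPKM), and 12 lost their call in at least 1 fit that left out a library. The number of members called lower was 13, ran from 6 to 12 with 1 library left out, and was 18 with equal medians and 19 with quantile normalization. The number called higher was 7 and ran from 4 to 6, and it was 4 with a filter at a mean of 5 FPKM, 10 with no filter and 9 with library weights. For the partners, 10 lower became 20 with equal medians and 16 with quantile normalization and ran from 4 to 12 with 1 library left out, while 6 higher became 2 with the filter at a mean of 5 FPKM and ran from 5 to 8. With the replicate number as a block, 8 members were lower and 4 higher, against 563 and 1359 of all tested genes. The other counts over all tested genes moved as well. The 905 lower ran from 457 to 873 with 1 library left out. They became 1435 with equal medians and 1441 with quantile normalization. The 1871 higher ran from 1317 to 1757 with 1 library left out. They became 1146 with the filter at a mean of 5 FPKM, 1957 with no filter and 2224 with library weights. Libraries of the same number did not deviate together (correlations of -0.004, 0.017 and 0.039), so the numbers were not taken to pair them. Ugt1a6b, at -0.08, changed sign to 0.09 with library weights and ranged from -0.26 to 0.19 with 1 library left out, being positive without bleomycin library 3. The cause of these changes was not tested.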
